A study of Mus musculus with 30 samples.

Results

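Antisense small RNAs of mitochondrial genes are short RNAs read from the DNA strand opposite to the one that encodes the gene. A member was any sequence of 20 to 45 nt whose whole length matched, without a mismatch, the reverse complement of a transcript on the mouse mitochondrial chromosome (GENCODE vM21, GRCm38) and matched no annotated transcript in sense. Each distinct sequence counted as 1 region. The rule found 51677 regions among 115048857 distinct sequences of that length, 46568 of them in PANDORA-seq and 9241 in traditional-seq, with 4132 found in both. It used no genotype and no abundance. Single reads made up 38.3% of the regions in PANDORA-seq and 46.6% in traditional-seq, and 125 and 13 regions were present in every library of the respective protocol.

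The libraries came from cortex of 6-month-old 5XFAD mice (AD) and wild-type mice (WT). The 5XFAD mouse carries transgenes under the neuronal Thy1 promoter and is a model of amyloid deposition, and the study's methods describe hemizygous carriers and littermates of both sexes on a C57BL6/J background. In PANDORA-seq, RNA was treated with AlkB, which removes some base methylations, and T4PNK, which repairs RNA ends, before ligation of adapters. Traditional-seq omitted both enzymes. There were 8 WT and 8 AD libraries by PANDORA-seq and 7 WT and 7 AD libraries by traditional-seq.

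PANDORA-seq libraries held 54926347 to 105876141 reads and traditional-seq libraries 9370669 to 17053412 reads. Members supplied 275349 PANDORA-seq reads and 35322 traditional-seq reads, so a single member was usually a rare molecule. The longest read in traditional-seq had 42 nt, so RNAs of 43 to 45 nt could be compared only in PANDORA-seq. Brain-enriched miRNA hairpins ranged from 1542 to 6388 RPM (read counts scaled to the total of the library) in PANDORA-seq, against 72.8 to 1370 RPM for blood, 30.4 to 177.5 RPM for vessel and 1.65 to 144.5 RPM for muscle hairpins. Oligodendrocyte hairpins had 23.3 to 138.2 RPM there and liver hairpins 40.5 to 243.2 RPM. In traditional-seq, brain hairpins had 87060 to 290900 RPM, vessel 5192 to 12020 RPM and muscle 266.6 to 7857 RPM (median 426.3). Oligodendrocyte, blood and liver hairpins reached at most 1475, 335.3 and 752.7 RPM in traditional-seq.

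Mitochondrial DNA is transcribed from both strands into long transcripts that span many genes. Most genes are read from one strand, and transcription of the other yields mt-Nd6 and a minority of the tRNAs, with the rest of that transcript lying antisense to the remaining genes. tRNAs punctuate both transcripts and are cut out at their ends by RNase P and ELAC2. The antisense RNA is normally kept low by the helicase SUV3 and the exonuclease PNPase, and double-stranded mitochondrial RNA that reaches the cytosol can be sensed by MDA5 (Ifih1).

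The most abundant antisense RNA of each of the 8 leading genes in PANDORA-seq follows, as an example of the positions and lengths described here. Such an RNA can be a small part of its gene's antisense reads. It had 74 of 9014 reads for mt-Co1 and 321 of 24551 for mt-Nd4, but 3097 of 8116 for mt-Tp. The order is by the mean over all 16 libraries, which can hide unequal libraries. The mt-Nd5 RNA averaged 3.63 RPM in WT and 0.215 RPM in AD, the mt-Co3 RNA 0.140 and 0.00531 RPM, and 100 of the 201 reads of the mt-Cytb RNA came from 1 library. Capitals mark bases that at least 90% of the highest antisense coverage within that sequence reaches, and the minus or plus strand is that of the RNA itself.

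mt-Nd5, chrM:12925-12969, minus strand, 45 nt: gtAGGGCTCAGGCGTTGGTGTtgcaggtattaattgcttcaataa
mt-Nd4, chrM:10270-10311, minus strand, 42 nt: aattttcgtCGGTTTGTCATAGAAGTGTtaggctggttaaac
mt-Nd6, chrM:13811-13851, plus strand, 41 nt: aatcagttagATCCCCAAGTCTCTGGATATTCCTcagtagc
mt-Cytb, chrM:14877-14910, minus strand, 34 nt: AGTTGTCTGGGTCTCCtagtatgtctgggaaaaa
mt-Co1, chrM:6741-6775, minus strand, 35 nt: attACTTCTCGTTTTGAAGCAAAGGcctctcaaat
mt-Tp, chrM:15356-15390, plus strand, 35 nt: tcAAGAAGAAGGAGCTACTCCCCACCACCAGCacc
mt-Co3, chrM:8893-8937, minus strand, 45 nt: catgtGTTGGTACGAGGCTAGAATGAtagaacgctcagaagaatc
mt-Nd3, chrM:9589-9616, minus strand, 28 nt: attgagaatggtAGACGTGCAGAGCTtg

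In traditional-seq the leading RNAs of its 3 highest genes were shorter, and the mt-Nd6 RNA lay inside the longer one listed above.

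mt-Nd5, chrM:12906-12928, minus strand, 23 nt: ataattaggtctTTTGAGTAGAA
mt-Nd6, chrM:13826-13845, plus strand, 20 nt: CAAGTCTCTGGATATTCCTC
mt-Nd3, chrM:9728-9747, minus strand, 20 nt: TTGTGACTagaataaaggct

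Antisense RNAs were a small part of mitochondrial small RNA in both protocols, and nearly all of them came from genes for proteins. They reached 210.2 ± 86.8 RPM (SD, n = 16) in PANDORA-seq and 207.2 ± 87.7 RPM (SD, n = 14) in traditional-seq. As a share of all mitochondrial reads this was 0.985% ± 0.646 and 0.658% ± 0.281. The 13 protein-coding genes gave 91.7% of PANDORA-seq and 87.0% of traditional-seq antisense reads, the 22 tRNA genes 6.83% and 6.88%, and both rRNA genes together 1.43% and 6.15%. Read against the sense RNA of the same class, antisense reads were 6.45% ± 1.69 of the PANDORA-seq reads of protein-coding genes but 0.0591% of the reads of rRNA genes.

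mt-Nd5, a core subunit of respiratory complex I at chrM:11742-13565, carried more RNA antisense to its annotated span than any other gene. In PANDORA-seq it had 108.8 ± 51.6 RPM (SD, n = 16, 36.5 to 198.0), which was 50.6% of all antisense reads and between 40.8% and 61.8% in single libraries. Antisense reads were 33.4% of all reads of the gene. In traditional-seq mt-Nd5 again had the highest mean, with 50.9 ± 26.5 RPM (SD, n = 14, 18.6 to 105.0) and 23.7% of antisense reads. This order holds for the mean, and mt-Nd6 was above mt-Nd5 in 5 of 14 traditional-seq libraries and in 0 of 16 PANDORA-seq libraries.

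Of the other complex I genes, mt-Nd4 and mt-Nd6 came next in PANDORA-seq, while mt-Nd3, mt-Nd1 and mt-Nd2 lay below mt-Cytb, mt-Co1, mt-Tp and mt-Co3. mt-Nd4 had 18.6 ± 8.86 RPM (6.27 to 39.3) in PANDORA-seq, mt-Nd6 16.9 ± 6.34 RPM (7.91 to 33.9) and mt-Nd3 5.36 ± 2.33 RPM (1.86 to 9.26). mt-Nd1 and mt-Nd2 lay at 4.99 ± 2.15 and 4.96 ± 2.62 RPM, so these last 3 genes differed by less than their spread over libraries. The 7 mitochondrially encoded complex I genes together held 77.3% of antisense reads in PANDORA-seq and 64.2% in traditional-seq, and antisense reads were 16.1% ± 2.72 of their reads in PANDORA-seq. The single genes ranged widely, from 2.73% for mt-Nd1 and 3.90% for mt-Nd2 to 31.1% for mt-Nd6 and 33.4% for mt-Nd5. For the complex IV genes, which encode core subunits of cytochrome c oxidase, that share was 1.02%. For mt-Cytb of complex III it was 4.79%, above the values of mt-Nd1 and mt-Nd2.

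Among the remaining leading genes in PANDORA-seq, mt-Cytb had 10.7 ± 5.52 RPM, mt-Co1 6.84 ± 2.70 RPM and mt-Co3 5.42 ± 2.12 RPM. mt-Tp, the gene of the proline tRNA, had 6.29 ± 3.10 RPM (1.40 to 15.4). Because mt-Tp is so short, its level per length was the highest of the genes named here, at 93.9 RPM per kb against 59.7 for mt-Nd5 and 32.6 for mt-Nd6. In traditional-seq mt-Nd6 led on this scale, at 71.8 RPM per kb.

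**Figure D1:**
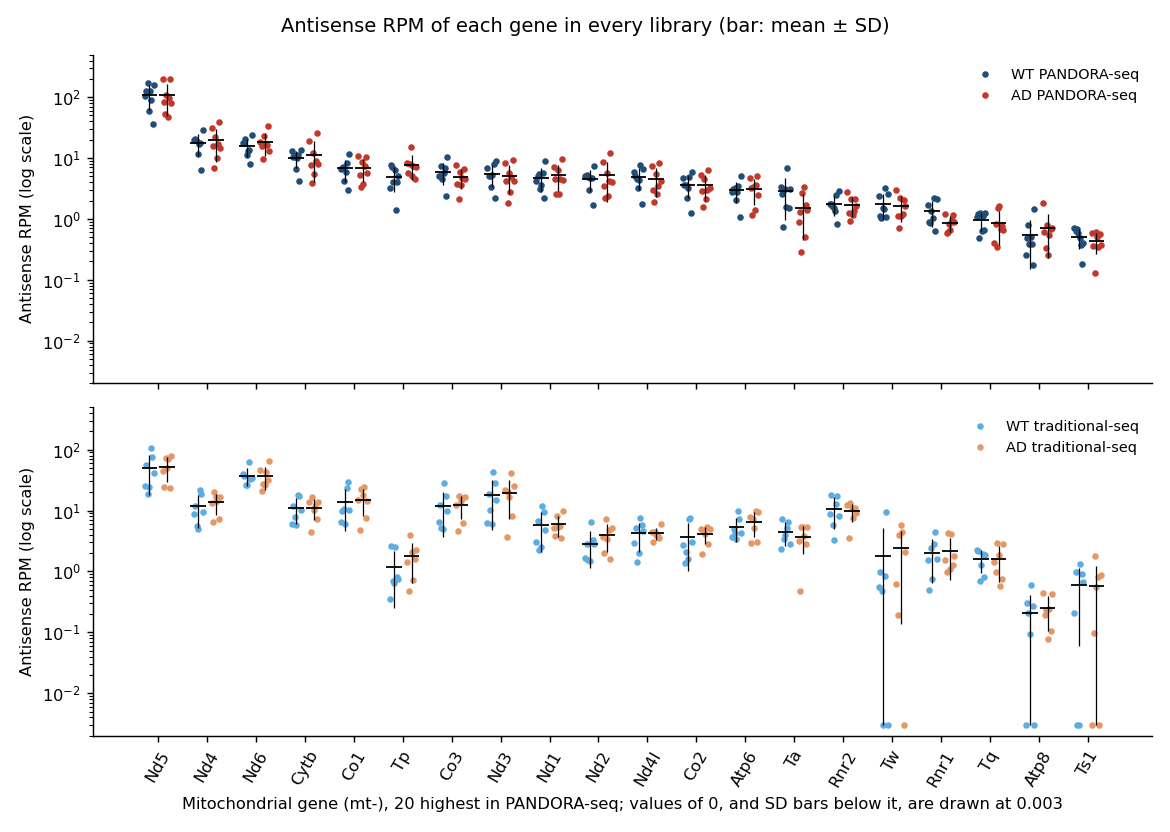
Antisense RPM (log axis) of the 20 genes with the highest level in PANDORA-seq, with a point for each library, a short line for the mean and a bar for the SD, PANDORA-seq above and traditional-seq below. Values of 0 are drawn at 0.003. mt-Nd5 had the highest mean in PANDORA-seq (108.8 RPM) and in traditional-seq (50.9 RPM), and WT and AD points overlap.

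Traditional-seq gave another order below mt-Nd5. mt-Nd6 followed with 37.3 ± 13.5 RPM (21.2 to 65.9), mt-Nd3 with 18.9 ± 12.3 RPM, mt-Co1 with 14.5 ± 7.93 RPM and mt-Nd4 with 12.6 ± 5.69 RPM, and neighbouring genes in this order overlapped in range. mt-Nd6 is the only protein-coding gene read from the opposite strand, so its antisense RNA has the polarity of the neighbouring mRNAs. Antisense reads were 56.0% of mt-Nd6 reads in traditional-seq (45.4% to 68.8% in single libraries) and 31.1% in PANDORA-seq (18.9% to 45.8%). A single 20-nt RNA, shown above, supplied 10.4 ± 5.03 RPM of this in traditional-seq and was present in 14 of 14 libraries.

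Summed over genes, those coded on the strand of mt-Nd6 had more antisense RNA per length than those on the plus strand, and in PANDORA-seq this rested on mt-Tp and mt-Nd6. The 28 genes coded on the plus strand had 12.7 ± 5.64 RPM per kb in PANDORA-seq and the 9 genes coded on the minus strand 25.5 ± 7.30 RPM per kb (SD, n = 16 each). The level was lower for plus-coded genes in 16 of 16 libraries, with a log2 difference of -1.08 (exact two-sided sign-flip permutation test, p = 3.05e-05, the smallest possible, adjusted p = 0.000488 over 16 comparisons). In traditional-seq the levels were 11.1 ± 5.27 and 44.2 ± 14.8 RPM per kb, a log2 difference of -2.08 in 14 of 14 libraries (exact two-sided permutation test, p = 0.000122, the smallest possible, adjusted p = 0.000977). The test is over libraries, not over genes. In PANDORA-seq 4 of the 9 minus-coded genes were above the plus-coded sum of 12.7 RPM per kb and 5 below it, and in traditional-seq 5 were above and 4 below. The median over genes was 6.79 RPM per kb for minus-coded and 2.40 for plus-coded genes in PANDORA-seq. In traditional-seq these medians were 19.05 and 4.92 RPM per kb.

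The log2 difference in PANDORA-seq was -2.16 without mt-Nd5, -0.78 without mt-Tp and -0.65 without mt-Nd6. Without both mt-Tp and mt-Nd6 it turned to 0.70, with plus-coded genes higher (exact permutation p = 0.0164). In traditional-seq it was -0.74 without mt-Nd6 and -0.71 without both (exact permutation p = 0.000366 each). These settings were chosen after seeing the data. Without mt-Nd6 the minus-coded genes left were all tRNA genes, of 66 to 71 nt, while the plus-coded set kept long rRNA and protein-coding genes. In those settings strand and class of gene cannot be told apart.

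Along the chromosome, antisense levels of the longer plus-coded genes tended to be higher towards mt-Tp, though not gene by gene. Over the 14 plus-coded rRNA and protein-coding genes, Spearman's rho between distance from that edge and antisense RPM per kb was -0.83 by PANDORA-seq, and between -0.87 and -0.77 in single libraries. In traditional-seq it was -0.70. These are correlations across genes of the same libraries, given as a description, and sense levels of these genes had rho of 0.49 and 0.48. Of these genes mt-Cytb lies nearest the edge, with 9.35 RPM per kb in PANDORA-seq, below mt-Nd5 (59.7), mt-Nd4l (15.8), mt-Nd3 (15.4) and mt-Nd4 (13.5). The tRNA gene mt-Tt, nearer still and not among the 14, had 3 antisense reads in PANDORA-seq. mt-Rnr1 and mt-Rnr2, at the far end, had 1.16 and 1.09 RPM per kb in PANDORA-seq.

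**Figure D2:**
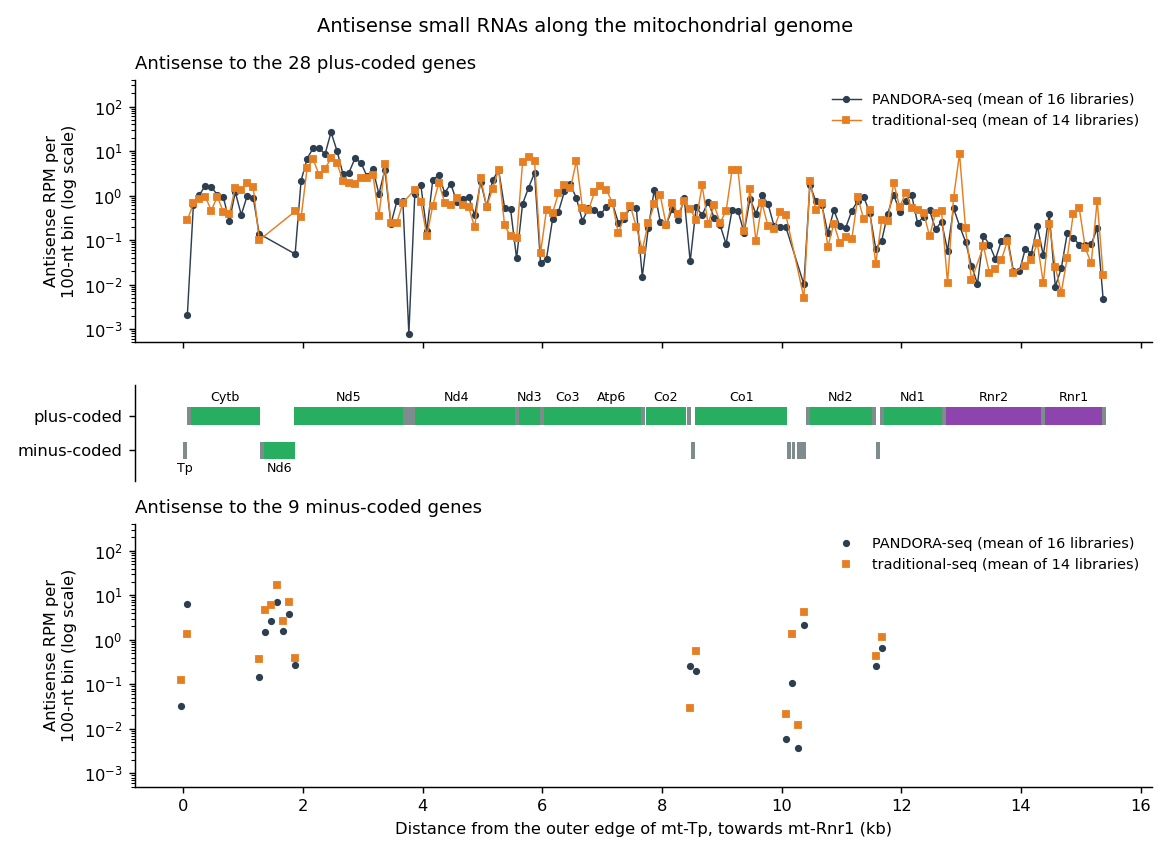
Mean antisense RPM per 100-nt bin (log axis) against distance from the outer edge of mt-Tp in kb, for the 28 plus-coded genes above and the 9 minus-coded genes below, with the genes drawn between. In PANDORA-seq the highest bins of the plus-coded genes lie in mt-Nd5, while in traditional-seq single bins in mt-Rnr2 and mt-Nd3 reach higher. The order in traditional-seq depends on where the bins start. With bins counted from mt-Nd6, the mt-Nd5 bin 601 to 700 nt away averaged 9.12 RPM, against 8.72 RPM for the mt-Rnr2 bin drawn here.

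Within mt-Nd5 the antisense RNAs were concentrated towards mt-Nd6, which overlaps its end on the opposite strand. Reads centred within 800 nt of the 3′ end of mt-Nd6 were 71.2% of mt-Nd5 antisense reads in PANDORA-seq (66.3% to 80.8% in single libraries) and 62.1% in traditional-seq (55.2% to 66.7%). Few lay directly beside mt-Nd6, with 0.765% and 1.09% within 100 nt. The window 601 to 700 nt away held 15.2% of them by PANDORA-seq and 17.05% by traditional-seq, and the 45-nt RNA of mt-Nd5 shown above falls in it. Membership rested on annotated ends, and mt-Nd6 is annotated to end at chrM:13552. RNA of mt-Nd6 that ran past that end would count here as antisense to mt-Nd5. Likewise, RNA of mt-Nd5 past chrM:13565 would count as antisense to mt-Nd6. How many reads came from such RNA was not tested.

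**Figure D3:**
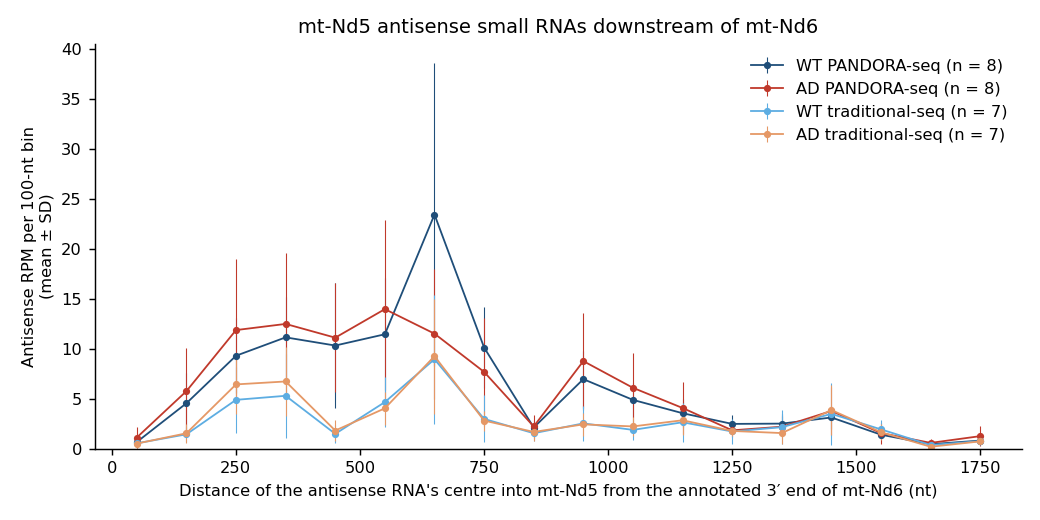
Antisense RPM over mt-Nd5 per 100-nt bin (mean ± SD over libraries) against distance from the 3′ end of mt-Nd6 in nt, by protocol and genotype. The bin 601 to 700 nt away averaged 23.5 RPM in WT and 11.5 RPM in AD by PANDORA-seq, with bars that overlap.

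Some antisense RNAs of tRNA genes began at an edge between genes. RNAs antisense to mt-Tp whose 5′ end lay on position 15356, the base after the end of mt-Tt at 15355, reached 5.23 ± 2.75 RPM in PANDORA-seq and made up 2.81% of all antisense reads. Its leading RNA, shown above, was present in 16 of 16 libraries. RNAs antisense to mt-Ta, the alanine tRNA gene, began most often at position 5018, beside the end of mt-Tw at 5016, with 1.12 RPM in PANDORA-seq and 2.37 RPM in traditional-seq. Both positions are the first annotated base of their gene. A member had to match a transcript over its whole length, so RNAs that began before these bases were not counted. For mt-Tw, the tryptophan tRNA gene, antisense reads were 46.5% of all reads in PANDORA-seq, though they amounted to 1.71 ± 0.759 RPM and ranged from 18.4% to 79.3% in single libraries.

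At the other extreme, mt-Ts2, a serine tRNA gene, gave 0 antisense reads beside 18480112 sense reads in PANDORA-seq, which allows an antisense share of up to 1.62e-05%. In traditional-seq the same count of 0 stood beside 3108330 sense reads and allows up to 9.65e-05%. These limits, set at 3 counts, cover counting error only.

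Many members could also be read from nuclear DNA. Sequences that matched the reverse complement of a nuclear transcript as well made up 43.7% ± 4.80 of PANDORA-seq and 39.0% ± 4.82 of traditional-seq antisense reads. The share was 99.9% for mt-Co3 and 96.9% for mt-Nd3 in PANDORA-seq, 50.0% for mt-Nd5, 1.44% for mt-Nd6 and 0% for the tRNA genes. For the reads that matched both, the mitochondrial and the nuclear origin cannot be told apart. Only annotated nuclear transcripts were searched, not the nuclear genome, so these shares are lower limits.

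Antisense RNAs mostly had no exact partner of their own length. The full reverse complement of a member was found among the sense reads of the same library for 17.8% ± 3.10 of PANDORA-seq and 5.70% ± 1.55 of traditional-seq antisense reads. The leading mt-Nd5 RNA had 2512 reads and its mirror sequence 15, whereas the leading mt-Tp RNA had 3097 reads and its mirror 5942. Across libraries, antisense level rose with the sense level of protein-coding genes. Between their log2 RPM values, Pearson's r was 0.83 in PANDORA-seq (n = 16, permutation p = 3e-05, adjusted p = 6e-05) and Spearman's rho 0.84 (permutation p = 0.00011, adjusted p = 0.00022). Within WT and AD r was 0.82 and 0.86, and without the 2 libraries farthest from the median it was 0.77. In traditional-seq r was 0.97 (n = 14, permutation p = 1e-05, the smallest possible, adjusted p = 4e-05) and rho 0.96 (permutation p = 1e-05, adjusted p = 4e-05), and r without the 2 farthest libraries was 0.98. With the sense level of all mitochondrial genes, r was 0.10 (permutation p = 0.712, adjusted p = 0.712) and 0.19 (permutation p = 0.524, adjusted p = 0.699), with rho 0.06 (permutation p = 0.841) and 0.16 (permutation p = 0.583). Without the 2 farthest libraries these r values moved to -0.36 and 0.59, so they rest on those libraries. There were 4 such relations. Both measures of a library share its total.

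**Figure D4:**
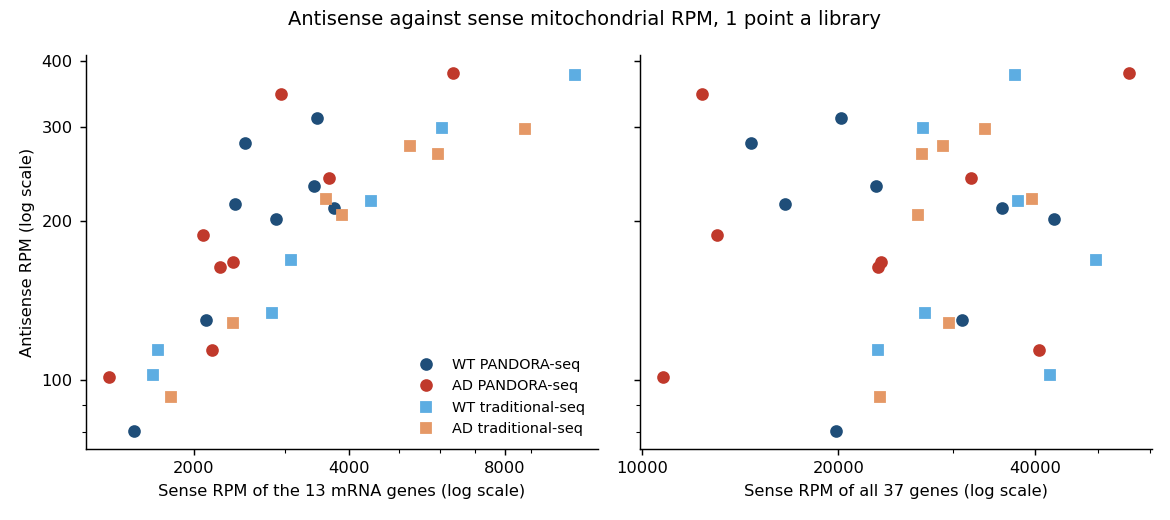
Antisense RPM against sense RPM of the 13 protein-coding genes (left) and of all 37 mitochondrial genes (right), all on log axes, with a point for each library. On the left r was 0.83 for PANDORA-seq and 0.97 for traditional-seq, and on the right 0.10 and 0.19.

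The comparison of AD with WT asked whether these RNAs differ in the model of Alzheimer's disease. The total did not separate the genotypes. In PANDORA-seq the lowest, median and highest WT libraries had 80.3, 212.9 and 312.3 RPM, and the AD libraries 101.5, 177.5 and 379.2 RPM. The ranges overlapped, and the log2 difference was -0.006 (exact two-sided permutation test, p = 0.984, adjusted p = 0.984). In traditional-seq the WT libraries had 102.6, 168.7 and 376.6 RPM and the AD libraries 93.0, 220.1 and 298.4 RPM, a log2 difference of 0.12 (exact permutation p = 0.727, adjusted p = 0.984). Bulk tissue was measured, so fewer cells of a type and less RNA per cell cannot be told apart.

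The share of mitochondrial reads gave no difference past the threshold either, at 0.945% ± 0.565 in WT and 1.03% ± 0.757 in AD by PANDORA-seq (exact permutation p = 0.825, n = 8 each). By class, the log2 differences in PANDORA-seq were -0.26 for rRNA genes (exact permutation p = 0.309), 0.10 for tRNA genes (p = 0.628) and -0.01 for protein-coding genes (p = 0.970). The corresponding exact permutation p values in traditional-seq were 0.971, 0.984 and 0.689.

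Length separated the genotypes in PANDORA-seq where the total did not. Reads of 43 to 45 nt were known from earlier results to differ in share between genotypes, and were set apart for that reason. The test of these lengths therefore describes a known difference and is no independent support. Antisense RNAs of 43 to 45 nt had 12.2, 41.4 and 76.8 RPM in the lowest, median and highest WT libraries and 1.38, 4.89 and 18.4 RPM in the AD libraries. They were lower in AD by 2.75 on the log2 scale (40.7 ± 20.3 against 7.27 ± 6.62 RPM, exact two-sided permutation test, p = 0.000777, adjusted p = 0.00414), and the values of 6 of 8 AD libraries were under the lowest WT value. RNAs of 20 to 42 nt had 167.2 ± 58.0 RPM in WT and 205.2 ± 100.6 RPM in AD, a log2 difference of 0.24 (exact permutation p = 0.464). At 42 nt, the upper end of that range, antisense RNAs had 10.2 ± 4.27 RPM in WT and 5.85 ± 3.96 RPM in AD, and at 41 nt 11.7 ± 4.21 and 10.9 ± 6.4 RPM (SD, n = 8 each, not tested by single length).

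The lower level of the longest RNAs in AD was shared by sense RNA and by the libraries as a whole. Reads of 43 to 45 nt were 15.5% ± 3.19 of all reads in WT libraries (11.2% to 21.5%) and 4.95% ± 2.90 in AD libraries (2.13% to 10.7%). Among antisense reads they were 18.8% ± 4.40 and 3.56% ± 2.97, and among mitochondrial sense reads 12.1% ± 5.17 and 3.28% ± 3.11. Scaled to the reads of 43 to 45 nt alone, the antisense log2 difference was -0.96 (exact permutation p = 0.0155). The part that the length profile of the whole library had in this result was not tested, and genotype and the length profile of these libraries cannot be told apart.

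**Figure D5:**
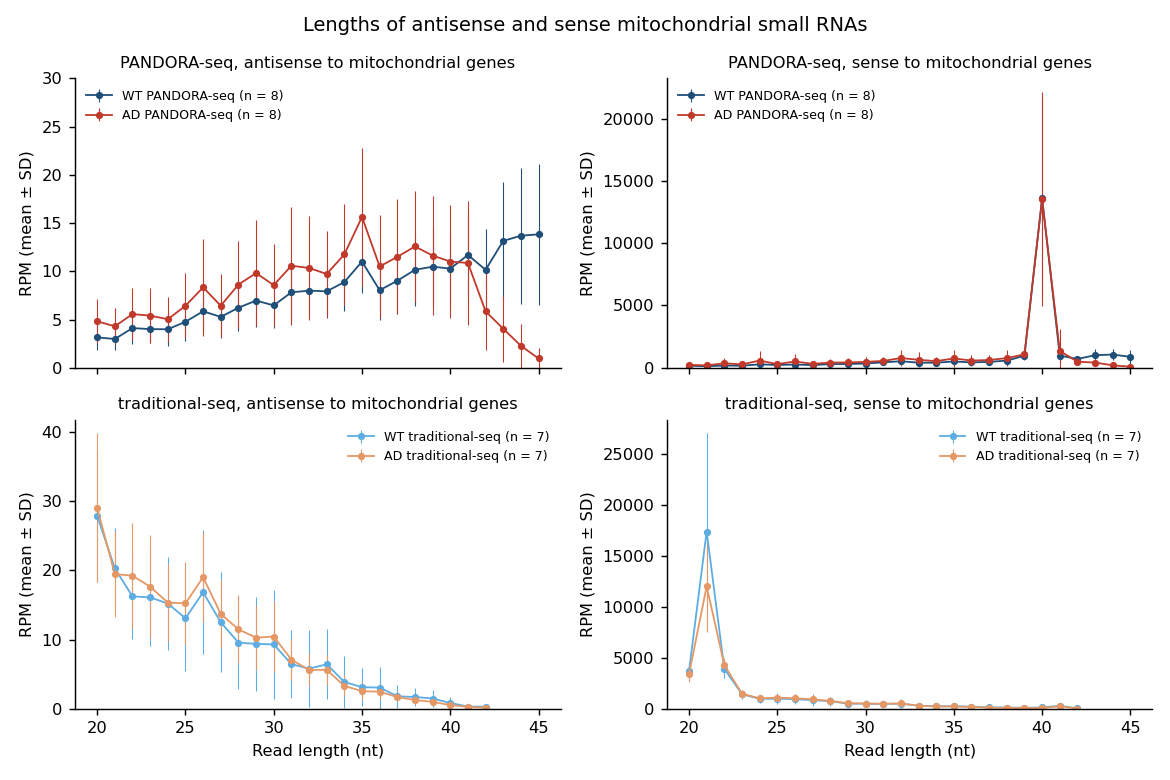
RPM at each read length from 20 to 45 nt (mean ± SD over libraries) for antisense reads (left) and sense reads (right) of mitochondrial genes, with PANDORA-seq above and traditional-seq below. The antisense line of AD in PANDORA-seq is below that of WT from 41 nt on, with means of 10.9 against 11.7 RPM at 41 nt and 5.85 against 10.2 RPM at 42 nt, and traditional-seq has no read over 42 nt.

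No gene's antisense RNA passed the test. Counts of all genes on both strands were fitted together by edgeR's quasi-likelihood test with Benjamini-Hochberg adjustment, and a call needed an adjusted p under 0.05 and a change over 2-fold. In PANDORA-seq 23 of 37 mitochondrial genes had enough antisense reads, and 0 were called lower (0.00575% of all features were) or higher (0.0% of all features). Their median log2 fold change was 0.10 beside 0.05 over all features, from -0.85 for mt-Ta to 1.20 for mt-Tl1, and 1 gene had an unadjusted p under 0.05, where 10.2% of all features did. In traditional-seq 18 genes were tested and 0 were called in either direction (0.0% of all features), with 2 at an unadjusted p under 0.05, where 2.76% of all features were. DESeq2 called 0 in both protocols.

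For mt-Nd5 the lowest, median and highest levels in PANDORA-seq were 36.5, 114.3 and 173.5 RPM in WT and 46.6, 90.5 and 198.0 RPM in AD. The genotypes overlapped, and the log2 fold change was 0.09 with SE 0.48 (edgeR adjusted p = 0.947). mt-Nd6 had 7.91, 15.6 and 24.0 RPM in WT and 9.50, 16.1 and 33.9 RPM in AD, a log2 fold change of 0.31 with SE 0.37. mt-Nd4, mt-Cytb, mt-Co1, mt-Co3 and mt-Nd3 had log2 fold changes between -0.20 and 0.33.

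mt-Tp was the gene of PANDORA-seq at an unadjusted p under 0.05. It had 1.40, 4.60 and 7.73 RPM in WT and 4.59, 7.25 and 15.4 RPM in AD, with a log2 fold change of 0.999 and SE 0.43 (edgeR adjusted p = 0.463). In traditional-seq it had 0.351, 0.759 and 2.58 RPM in WT and 0.483, 1.60 and 3.93 RPM in AD, a log2 fold change of 0.75 with SE 0.36 (edgeR adjusted p = 1). The ranges overlapped in both protocols, and the sense RNA of mt-Tp had a lowest, median and highest level of 60.4, 105.1 and 274.4 RPM in WT and 55.9, 173.2 and 769.1 RPM in AD by PANDORA-seq. Its AD mean was 228.4 RPM with and 151.2 RPM without replicate 1. The other gene of traditional-seq at that level was mt-Nd2, with a log2 fold change of 0.53 and SE 0.20 (edgeR adjusted p = 1).

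Single sequences were fitted with all other distinct sequences in the same way. In PANDORA-seq 93 members had enough reads, 68 of them from mt-Nd5, and 5 were called lower in AD, or 5.38% against 2.36% of all sequences tested, and 0 higher against 0.0439%. Leaving out 1 library gave 2 (without WT replicate 2) to 11 (without AD replicate 1) lower and up to 2 higher. The share of all sequences is not set beside these leave-out counts. DESeq2 and the likelihood ratio test each called 2 higher (2.15%, against 0.319% and 0.293% of all sequences by the same tests). All 5 had 43 to 45 nt. Of the 10 members of that length that were tested, 5 were called lower, where 22.7% of all sequences of that length were, and 0 higher, against 0.0171%. All 10 were lower at an unadjusted p under 0.05, against 51.2% of all sequences of that length (0.776% were higher). Over both length ranges 11 members were lower at that level, against 6.72% of all sequences tested, and 26 higher, against 3.56%. Of the 83 members of 20 to 42 nt, 0 were called lower (0.0707% of all) or higher (0.0469% of all) by edgeR. At an unadjusted p under 0.05, 26 of these 83 were higher in AD (31.3%, against 3.88% of all sequences of that length) and 1 was lower (against 1.7%). The 68 tested mt-Nd5 RNAs overlap one another and are not separate observations. A sequence can pass the filter on low counts through one genotype alone, so these counts are descriptive. In traditional-seq 8 members were tested and 0 were called by edgeR or DESeq2, with 0 at an unadjusted p under 0.05, where 0.783% of all sequences were lower and 0.788% higher.

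The called sequences were 4 overlapping RNAs of mt-Nd5 and 1 of mt-Ta. Beside the leading mt-Nd5 RNA shown above, these are the called RNAs with the smallest adjusted p. The mt-Nd5 ones share nearly the same ends, and the mt-Ta one lies elsewhere on the opposite strand.

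mt-Nd5, chrM:12924-12968, minus strand, 45 nt: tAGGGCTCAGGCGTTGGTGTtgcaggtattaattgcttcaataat
mt-Nd5, chrM:12927-12970, minus strand, 44 nt: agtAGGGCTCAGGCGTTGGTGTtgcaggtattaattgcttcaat
mt-Ta, chrM:5018-5062, plus strand, 45 nt: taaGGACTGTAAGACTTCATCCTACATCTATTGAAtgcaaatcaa

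The leading mt-Nd5 RNA had 0.246, 3.06 and 10.1 RPM in WT and 0, 0.0499 and 1.12 RPM in AD, with a log2 fold change of -4.17 and SE 0.93 (edgeR adjusted p = 0.0163). The mt-Ta RNA had 0.139, 0.374 and 1.51 RPM in WT and at most 0.0472 RPM in AD, with a log2 fold change of -4.92 and SE 0.80 (edgeR adjusted p = 0.00125), and 8 of 8 AD values were under the lowest WT value. The mt-Ta RNA passed the filter on low counts through its WT libraries alone. The WT libraries were also what carried the leading mt-Nd5 RNA past it, since its AD median was 0.0499 RPM. For both RNAs the separation of genotypes, with its fold change and adjusted p, is therefore descriptive and no independent support. RNAs with the same 5′ ends are given next by length. RNAs of 20 to 42 nt that began at the ends of the called mt-Nd5 RNAs had 4.46 ± 3.19 RPM in WT and 6.07 ± 3.87 RPM in AD, while those of 43 to 45 nt had 12.02 ± 10.6 and 1.80 ± 2.14 RPM (SD, n = 8 each). At the mt-Ta end, RNAs of 20 to 42 nt had 0.952 ± 0.748 RPM in WT and 0.707 ± 0.527 RPM in AD. The leading mt-Tp RNA, of 35 nt, had 0.403, 1.37 and 3.24 RPM in WT and 1.70, 2.49 and 8.28 RPM in AD, and did not pass the test (edgeR adjusted p = 0.382).

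PANDORA-seq and traditional-seq were compared as whole protocols. They differ in enzyme treatment, depth and longest read, so an effect of the enzymes alone cannot be told apart. The antisense level differed by 0.03 on the log2 scale (two-sided permutation test, p = 0.914), and the share of mitochondrial reads by 0.328 percentage points (permutation p = 0.0878, adjusted p = 0.351). Scaled to reads with a sense match to an annotated transcript, an alternative setting, the level was 0.98 higher in PANDORA-seq on the log2 scale (permutation p = 0.00068, not adjusted). The median antisense read had 36.1 nt in WT and 33.9 nt in AD by PANDORA-seq and 24.6 nt in traditional-seq, as means over libraries.

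Genes that make, cut or degrade mitochondrial RNA were examined through their own sense fragments. Of 30 listed names, 28 were found in the annotation. In PANDORA-seq 27 were tested and 0 were called lower or higher, with log2 fold changes from -0.43 to 0.33 (edgeR smallest adjusted p = 0.451). Of these, 2 genes, both lower, had an unadjusted p under 0.05. Of 13 genes that sense double-stranded RNA, 8 were tested and 0 were called. Their median was 0.35 beside 0.05 over all features, from -0.25 for Adar, which edits double-stranded RNA, to 0.70 for Tlr3, an endosomal receptor for it. In traditional-seq 3 and 2 genes of these lists were tested and 0 were called. By PANDORA-seq, 4 of the 8 sensing genes had an unadjusted p under 0.05, 3 higher and 1 lower, where 10.2% of all features did. They were Eif2ak2, which encodes the double-stranded RNA kinase PKR, Tlr3, Ifih1 and, lower, Adar. Eif2ak2 had a log2 fold change of 0.70 with SE 0.19 and Ifih1 one of 0.69 with SE 0.26 (edgeR adjusted p = 0.451 each). No gene of either list was called, against 0.00575% of all features called lower and 0.0% higher. Small fragments of an mRNA are not a measure of its full-length level.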

How the data were processed

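Small RNA was measured in 30 libraries. The authors deposited, for each library, the distinct sequences with their raw read count and their length. The study's methods name SPORTS for analysis and annotation of the raw reads and keep lengths of 15 to 45 nt, without saying which step wrote these files. The submitters' processing notes name mm39, but the files carry no coordinates. Each sequence of 20 to 45 nt was matched without a mismatch to all 141767 GENCODE vM21 transcripts, and positions are those of GRCm38. Matching was tested on simulated data (1999 of 2000 antisense sequences recovered, 0 of 2000 with 1 mismatch).

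Levels are RPM of all deposited reads. Totals were compared on log2(RPM + 0.1), and shares in percent, by exact two-sided permutation tests over libraries (12870 splits for 8 against 8, 3432 for 7 against 7) or 100000 shuffles between protocols, with Benjamini-Hochberg adjustment over 16 comparisons. Counts were fitted with edgeR 4.0.16 (quasi-likelihood, TMM, filterByExpr with a minimum count of 10 and total of 15) in R 4.3.3. In the gene table, mitochondrial antisense rows include sequences that also match nuclear transcripts, whereas other antisense rows hold sequences of 1 gene. In simulated data for AD against WT in PANDORA-seq (17403 features), 200 features were changed 4-fold, of which 183 were tested and 182 called. The simulated counts followed the dispersion trend of all features. They do not measure the power to call a 2-fold change, or a change in a gene noisier than the trend.

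Named genes were the 10 with the highest mean antisense RPM in PANDORA-seq, the 5 highest in traditional-seq and any called. Named sequences were the most abundant of the 8 and 3 highest genes and up to 4 called in each direction with the smallest adjusted p. mt-Tl1, mt-Ta, mt-Tw, mt-Ts2, mt-Rnr1, mt-Rnr2 and the genes of the complexes were named after their values were seen. The members and lists were chosen with earlier results of these data known. Labels give replicate numbers, but which libraries share an animal across protocols is not given in the sources used here, so p-values measure the spread between libraries. The file names carry a code that 14 PANDORA-seq libraries share with a traditional-seq library of the same genotype. No label explains it, so it served only as a block in an alternative between protocols. Alternatives covered scaling, pseudocount, filters, lengths, tests (DESeq2 1.42.0), a replicate block and leaving out each library. Those without mt-Nd5, mt-Tp or mt-Nd6, without nuclear matches and some at 20 to 42 nt were chosen after seeing the data.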

Additional observations from a re-analysis of the deposited data

Results flagged for a closer look

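In 26 sets of values, each of a measure within a group of libraries, 2 held a value far from the others. Chance alone marks about 1 in 20 sets, but these sets come from the same libraries and are not independent. The antisense share of mitochondrial reads in AD PANDORA-seq replicate 1 was 2.73%, against 0.280% to 1.42% in the remaining AD libraries. The antisense level of tRNA genes in AD PANDORA-seq replicate 4 was 24.0 RPM, against 10.1 to 14.1 RPM in the rest of that group. Without these libraries the AD minus WT differences were -0.163 percentage points and -0.03 on the log2 scale, and neither passed the test with or without them.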

How the results depend on the processing

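The totals of AD and WT differed so little that their sign turned with the setting, with no call gained or lost. For antisense RPM in PANDORA-seq the difference, -0.006 on the log2 scale, became 0.00741 per reads of 20 to 45 nt, 0.165 per reads with a sense match, 0.0126 at 15 to 45 nt, 0.0353 with sequences of at least 10 reads, 0.105 without nuclear matches, 0.048 without mt-Nd5 and 4.63 RPM on the linear scale. For its protein-coding genes it became 0.158 per sense-matched reads, 0.238 at 20 to 42 nt and 4.05 RPM on the linear scale, and for its rRNA genes 0.0624 at 20 to 42 nt. In traditional-seq the total became -0.00968 at 15 to 45 nt, rRNA genes 0.0225 per sense-matched reads, and tRNA genes 0.00154 with a pseudocount of 1, 0.0298 per sense-matched reads and 0.380 RPM on the linear scale. PANDORA-seq against traditional-seq became -0.0400 in AD alone, -0.0846 in a replicate block by file-name code, -0.152 at 20 to 42 nt, -0.0264 per reads of 20 to 45 nt and 0.976 per sense-matched reads, where it passed the threshold. The plus-coded against minus-coded difference in PANDORA-seq became 0.696 without mt-Tp and mt-Nd6. The cause was not tested.

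Called PANDORA-seq sequences numbered 5 lower and 0 higher. The likelihood ratio test and DESeq2 each gave 2 higher of 93. A strict filter gave 4 lower and 1 higher of 22 (18.2% and 4.55%, against 5.46% and 0.273% of all sequences), a loose filter 68 lower and 8 higher of 4912 (1.38% and 0.163%, against 1.25% and 0.452%), and 20 to 42 nt and 20 to 40 nt 0 lower, since all called ones were longer. Leaving out 1 library gave 2 to 11 lower (2 without WT PANDORA-seq replicate 2, 3 without AD replicate 2 or 8, 11 without AD replicate 1) and 0 to 2 higher. These counts stand without the share of all sequences called in the same refits. They do not show whether members moved with the rest.

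Leaving out each library in turn moved PANDORA-seq differences over -0.187 to 0.126 for the total, -0.163 to 0.212 percentage points for the share, -0.402 to -0.159 for rRNA genes, -0.0344 to 0.143 for tRNA genes, -0.203 to 0.125 for protein-coding genes and 0.072 to 0.37 for 20 to 42 nt. In traditional-seq the ranges were -0.012 to 0.306 for the total, 0.0444 to 0.187 percentage points for the share, -0.254 to 0.198 for rRNA genes, -0.12 to 0.238 for tRNA genes and 0.00958 to 0.334 for protein-coding genes. Between protocols they were -0.0534 to 0.11 for the level and 0.212 to 0.375 for the share, whose permutation p was 0.0472 without AD PANDORA-seq replicate 5. The 43 to 45 nt difference ranged from -3.01 to -2.49 and kept its call.

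WT and AD libraries share replicate numbers, but the deviations of same-numbered libraries correlated above 0.1 in 3 of 8 pairs of PANDORA-seq and 1 of 7 of traditional-seq, and 1 of 16 and 1 of 14 libraries correlated best with its own number, so the numbers were not taken as pairs. With a replicate block 6 sequences (share of all sequences not given) and 0 genes were called lower in PANDORA-seq. The 43 to 45 nt difference stayed at -2.75 (exact permutation p = 0.00781), and no other call changed.

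Leaving out sequences that match the nuclear genome was planned and not run. In traditional-seq 8 members had enough reads to be tested.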
